A study of Mus musculus with 8 samples.

Results

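The neuronal cytoskeleton genes described here are 10 genes listed by symbol: the stathmins Stmn1, Stmn2 and Stmn3, the neurofilament genes Nefl and Nefm, the microtubule-associated proteins Map1b, Map2, Mapt and Dcx, and the tubulin gene Tubb3. They were represented by all 25 probe sets that name only one of them in the array annotation, out of 34945 probe sets and 18193 genes measured in this way. All 10 genes were measured, and in 7 of them the highest group mean of the brightest probe set reached 5 on the log2 scale (the exceptions were Nefm, Map2 and Dcx). The genes were selected on their log2 levels in Tfap2c-/- and control PGCLCs, which were known when the list was drawn up, so their values in every comparison that holds PGCLCs are given as a description, without a test.

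Levels were read from 8 arrays of bulk RNA, 2 for each of 4 groups. Tfap2c-/- PGCLCs and control PGCLCs are primordial germ cell-like cells, obtained in culture from ESCs through an epiblast-like stage and sorted for the Blimp1mVenus reporter, a fluorescent protein transgene driven by regulatory sequence of Prdm1. Tfap2c-/- ESCs and control ESCs are the mouse embryonic stem cells from which they came. All 4 groups carry the Blimp1mVenus transgene. The control lines carry the floxed Tfap2c alleles undeleted, and the knockout lines were made from them by a transient transfection with a Cre plasmid, so each genotype rests on 2 ESC lines. Nothing in the labels, which give 2 biological replicates a group, ties a replicate number to a line, and p-values measure the spread between these samples. In bulk RNA, fewer cells of a type and less RNA per cell cannot be told apart.

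A neuron builds its axon and dendrites on microtubules, which are polymers of alpha and beta tubulin, and on neurofilaments, which are the intermediate filaments of axons. Stathmins bind tubulin and favour the shrinking of microtubules, whereas microtubule-associated proteins such as tau (the product of Mapt), MAP1B, MAP2 and doublecortin (the product of Dcx) stabilise and bundle them. Genes of this set are widely used to mark differentiating neurons. Stathmin 1 is also made by many dividing cells, where it acts on the mitotic spindle.

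Of the 10 genes, Stmn2, Nefl and Map1b had clearly higher levels in Tfap2c-/- PGCLCs than in control PGCLCs on their main probe sets, and for Nefl and Map1b the level in Tfap2c-/- PGCLCs was close to that in ESCs. Stmn2 lay between control PGCLCs and ESCs. Stmn3 was low in PGCLCs of both genotypes and high in ESCs of both. Stmn1 was high on all arrays, and Dcx was below the array medians throughout.

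**Figure D1:**
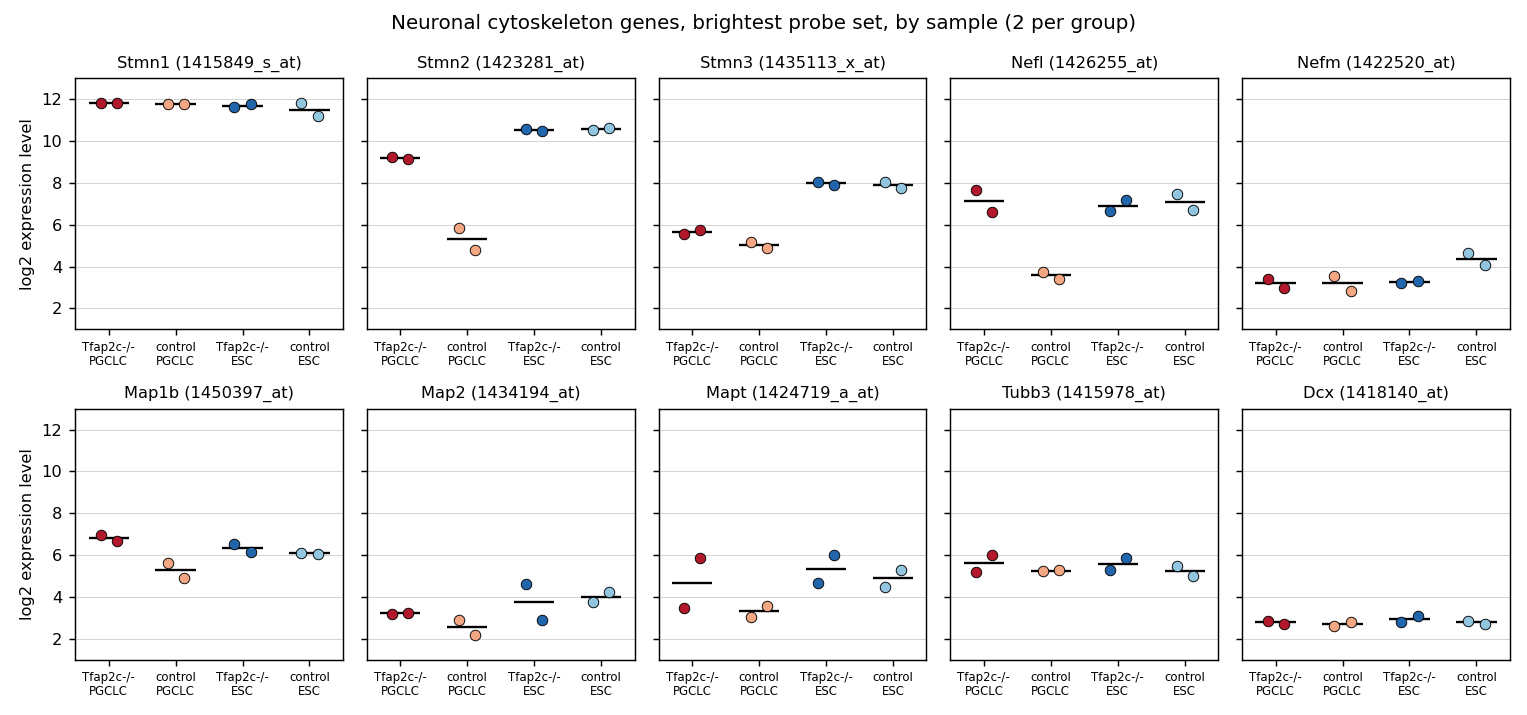
Level on the log2 scale (vertical axis) of the brightest probe set of each of the 10 genes in Tfap2c-/- PGCLCs, control PGCLCs, Tfap2c-/- ESCs and control ESCs. Each point is a sample, and the bar is the mean of the 2 samples of a group. Both Tfap2c-/- PGCLC samples lie far above both control PGCLC samples for Stmn2 (mean difference 3.87) and Nefl (3.57), whereas Stmn1 and Dcx are nearly level.

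The arrays had medians between 3.47 and 3.55, and values from 1.10 to 13.64. The lowest levels are those of background signal, and differences among them are compressed. Control PGCLC sample 2 stood apart in a pair of technical measures. Its Gapdh probe set at the 3' end exceeded that at the 5' end by 0.95 on the log2 scale, against 0.31 to 0.52 on the other 7 arrays, and its 24 poly-A spike-in probe sets averaged 7.91, against 6.72 to 7.44 in Tfap2c-/- PGCLCs and 5.42 to 5.91 on the remaining 5 arrays. The part of these measures in the results below was not tested. The targeted gene had levels of 8.52 and 8.85 in Tfap2c-/- PGCLCs, against 9.84 and 10.29 in control PGCLCs, and of 7.28 and 6.47 in Tfap2c-/- ESCs, against 7.88 and 9.14 in control ESCs. Tfap2c was thus lower in both knockout samples of each cell type, by 1.38 in PGCLCs (adjusted p = 0.15, limma) and by 1.63 in ESCs (adjusted p = 1, limma). Without control ESC sample 2 the difference in ESCs was -1.01. Where its probe set lies relative to the deleted part is not given in the sources used here.

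Stmn2, which encodes the stathmin of growth cones also called SCG10, was measured by 2 probe sets. On the brighter one, 1423281_at, the levels were 9.22 and 9.15 in Tfap2c-/- PGCLCs and 5.84 and 4.80 in control PGCLCs. They were 10.61 and 10.49 in Tfap2c-/- ESCs and 10.56 and 10.65 in control ESCs. The 4 ESC samples lay between 10.49 and 10.65, and both knockout PGCLC samples lay below all of them and far above both control PGCLC samples. The mean difference between Tfap2c-/- and control PGCLCs was 3.87 on the log2 scale (SE 0.29, n = 2 each). Against ESCs of the same genotype, the difference was -1.36 in Tfap2c-/- PGCLCs and -5.28 in control PGCLCs. The second probe set, 1423280_at, gave 7.57 and 7.78 in Tfap2c-/- PGCLCs, against 4.78 and 3.57 in control PGCLCs, with 8.63 to 8.75 in the ESC samples, which is the same order of groups. Leaving out any one PGCLC sample moved the genotype difference between 3.35 (without control PGCLC sample 2) and 4.39 (without control PGCLC sample 1).

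Stmn3, a further stathmin of neurons, had 5.57 and 5.74 in Tfap2c-/- PGCLCs and 5.20 and 4.90 in control PGCLCs on probe set 1435113_x_at. The levels were 8.05 and 7.90 in Tfap2c-/- ESCs and 8.07 and 7.77 in control ESCs. PGCLCs of both genotypes therefore lay below every ESC sample, by 2.32 in the knockout and by 2.87 in the control, while Tfap2c-/- PGCLCs exceeded control PGCLCs by only 0.61 (SE 0.19). The suffix of this probe set marks probes that can bind other transcripts. The second probe set, 1460181_at, which has no such suffix, gave 4.58 and 4.76 in Tfap2c-/- PGCLCs, against 4.23 and 3.67 in control PGCLCs, and 6.40 to 6.85 in ESCs. The same cell type difference was thus seen on both probe sets.

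Stmn1, the stathmin of dividing cells, had 11.83 and 11.80 in Tfap2c-/- PGCLCs, 11.77 and 11.77 in control PGCLCs, 11.62 and 11.76 in Tfap2c-/- ESCs, and 11.80 and 11.22 in control ESCs on probe set 1415849_s_at. Its range over the 8 arrays was 0.62, and Tfap2c-/- PGCLCs differed from control PGCLCs by 0.05 (SE 0.17). On the other probe set all 8 samples lay between 7.57 and 8.08.

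Nefl encodes the light neurofilament subunit, on which the other subunits assemble. On probe set 1426255_at its levels were 7.68 and 6.60 in Tfap2c-/- PGCLCs and 3.76 and 3.40 in control PGCLCs. They were 6.66 and 7.17 in Tfap2c-/- ESCs and 7.47 and 6.71 in control ESCs. One knockout PGCLC sample lay just above the highest ESC sample and the other just below the lowest, and both control PGCLC samples lay far below all ESC samples. The mean difference between Tfap2c-/- and control PGCLCs was 3.57 (SE 0.40), while Tfap2c-/- PGCLCs differed from Tfap2c-/- ESCs by 0.22 (SE 0.40) and control PGCLCs from control ESCs by -3.51 (SE 0.40). The difference of 0.22 was -0.32 without Tfap2c-/- PGCLC sample 1 and 0.77 without sample 2. The dimmer probe set 1454672_at gave 4.66 and 3.96 in Tfap2c-/- PGCLCs, against 2.57 and 3.15 in control PGCLCs, with 4.34 to 4.78 in ESCs. Its genotype difference was 1.45, in the same direction at a lower level. Without one of the PGCLC samples, the difference on the brighter probe set lay between 3.02 and 4.11.

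Nefm, the medium neurofilament subunit, did not follow Nefl. Its single probe set gave 3.43 and 2.97 in Tfap2c-/- PGCLCs, 3.58 and 2.82 in control PGCLCs, 3.21 and 3.32 in Tfap2c-/- ESCs, and 4.64 and 4.09 in control ESCs. The PGCLC groups overlapped completely, with a mean difference of 0.00 (SE 0.30), and control ESCs were the highest group. In the mouse annotation the 2 genes are neighbours on chromosome 14, with 1 pseudogene (Gm19216) between them.

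Map1b, a microtubule-associated protein made early in axon growth, had 6.95 and 6.67 in Tfap2c-/- PGCLCs and 5.62 and 4.90 in control PGCLCs on probe set 1450397_at. The levels were 6.52 and 6.16 in Tfap2c-/- ESCs and 6.09 and 6.06 in control ESCs. The knockout PGCLC samples were the highest of the 8 and the control PGCLC samples the lowest. The genotype difference in PGCLCs was 1.55 (SE 0.26), and it lay between 1.18 (without control PGCLC sample 2) and 1.91 when one PGCLC sample was left out. Tfap2c-/- PGCLCs exceeded Tfap2c-/- ESCs by 0.46 and control PGCLCs were below control ESCs by 0.81 (difference -0.81, SE 0.26 for both). The difference between control PGCLCs and control ESCs was -0.45 without control PGCLC sample 2, and that between Tfap2c-/- PGCLCs and Tfap2c-/- ESCs was 0.28 without Tfap2c-/- ESC sample 2, or 0.14 when the 3 probe sets were averaged. Probe set 1421851_at gave 4.26 and 4.01 in Tfap2c-/- PGCLCs, against 3.09 and 1.76 in control PGCLCs, with 3.72 to 4.34 in ESCs. On the third probe set all samples lay between 2.86 and 3.25, below the array medians, and the genotype difference was 0.06.

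**Figure D2:**
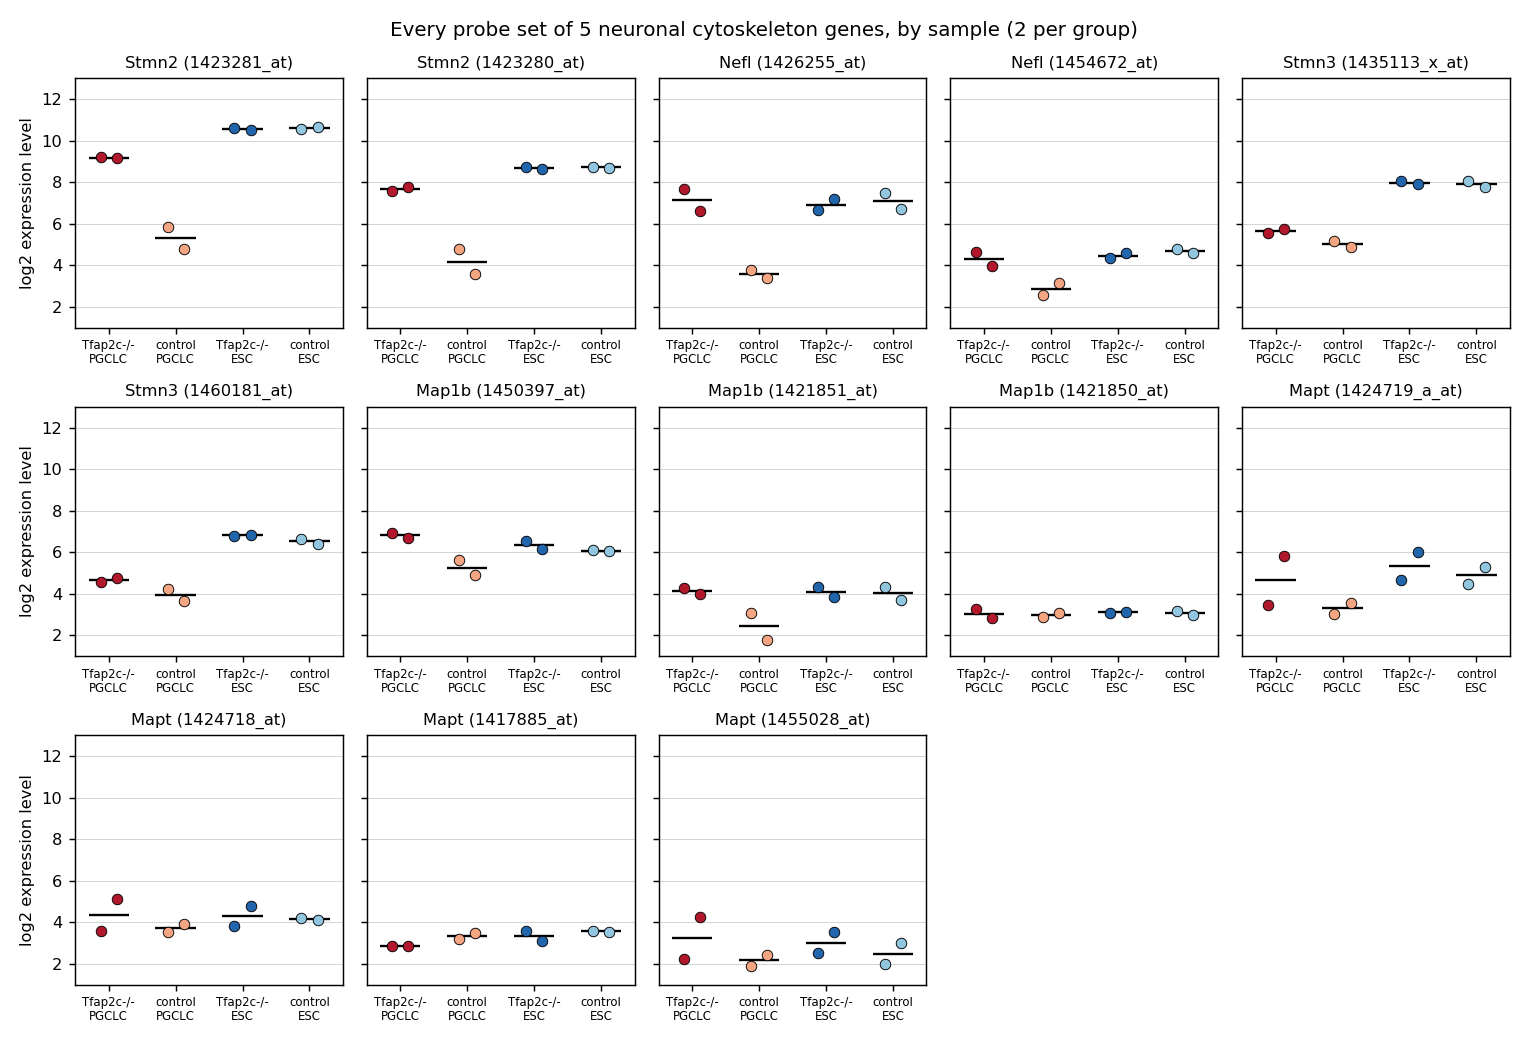
Level on the log2 scale (vertical axis) of every probe set of Stmn2, Nefl, Stmn3, Map1b and Mapt in Tfap2c-/- PGCLCs, control PGCLCs, Tfap2c-/- ESCs and control ESCs. Points are samples and bars are means of the 2 samples of a group. Both probe sets of Stmn2 and of Nefl place control PGCLCs lowest, both of Stmn3 place PGCLCs of each genotype below ESCs, and the third of Map1b is flat near 3.

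The protein lost in the knockout, AP-2 gamma, is a transcription factor whose family binds GC-rich palindromes, of which GCCNNNGGC is a common form that reads the same on both strands. RefSeq promoters (build GRCm38.p6, 250 bases before to 50 bases after the start of a transcript) were at hand for 5 of the 10 genes, namely Map1b, Map2, Stmn3, Tubb3 and Dcx. Those of Map1b, at chr13:99516553-99516852, and Stmn3, at chr2:181314451-181314750, both on the minus strand, are shown because the 2 genes differed in how they stood to ESCs. Matches to the motif are in capitals.
Map1b: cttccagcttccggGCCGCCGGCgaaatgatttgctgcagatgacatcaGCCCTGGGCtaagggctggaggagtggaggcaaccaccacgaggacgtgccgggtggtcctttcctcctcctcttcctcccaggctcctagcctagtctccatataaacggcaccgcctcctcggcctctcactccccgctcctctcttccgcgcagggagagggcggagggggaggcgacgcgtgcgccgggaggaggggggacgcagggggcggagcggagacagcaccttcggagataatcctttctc
Stmn3: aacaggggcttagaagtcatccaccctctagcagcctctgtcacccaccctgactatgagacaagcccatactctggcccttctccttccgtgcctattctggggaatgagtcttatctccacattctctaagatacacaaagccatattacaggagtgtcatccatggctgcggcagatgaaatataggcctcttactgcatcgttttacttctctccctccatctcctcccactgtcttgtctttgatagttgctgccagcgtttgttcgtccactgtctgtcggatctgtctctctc
The Map1b promoter holds 2 matches, starting at bases 15 and 50 of the printed sequence, and that of Stmn3 holds 0, as did the promoters of Map2, Tubb3 and Dcx. Over all promoters in the table, 5450 of 32851 (16.6%) hold at least 1 match. A match is a run of letters only, and binding was not measured on these arrays.

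Map2, which encodes a microtubule-associated protein of dendrites, had 3.19 and 3.22 in Tfap2c-/- PGCLCs and 2.89 and 2.18 in control PGCLCs on its brightest probe set, 1434194_at. It had 4.62 and 2.87 in Tfap2c-/- ESCs and 3.75 and 4.24 in control ESCs. Both knockout PGCLC samples lay within the range of the ESC samples, but the 2 Tfap2c-/- ESC samples differed from each other by more than the PGCLC groups did, and the other 3 probe sets gave no level above 3.09.

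Mapt, the tau gene, had 3.48 and 5.84 in Tfap2c-/- PGCLCs and 3.05 and 3.57 in control PGCLCs on probe set 1424719_a_at. It had 4.65 and 6.01 in Tfap2c-/- ESCs and 4.49 and 5.28 in control ESCs. The higher value in Tfap2c-/- PGCLCs came from sample 2 alone, and sample 1 lay between the control PGCLC samples. The mean difference of 1.35 (SE 0.75) was 0.17 without Tfap2c-/- PGCLC sample 2 and 2.53 without sample 1. The same sample stood out on 1424718_at, with 3.58 and 5.11 in Tfap2c-/- PGCLCs, against 3.55 and 3.94 in control PGCLCs, and on 1455028_at, with 2.24 and 4.26 against 1.92 and 2.45 in control PGCLCs. On both of these probe sets Tfap2c-/- ESC sample 2 was also the higher of its pair, with 4.80 and 3.52 against 3.84 and 2.52 for sample 1. The fourth probe set ran from 2.87 to 3.60. On it both Tfap2c-/- PGCLC samples (2.87 and 2.87) lay below both control PGCLC samples (3.19 and 3.48).

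Tubb3, the beta tubulin most used as a mark of neurons, had 5.21 and 6.01 in Tfap2c-/- PGCLCs, 5.23 and 5.26 in control PGCLCs, 5.26 and 5.87 in Tfap2c-/- ESCs, and 5.49 and 4.99 in control ESCs on its single probe set. The groups overlapped in all comparisons, and Tfap2c-/- PGCLCs differed from control PGCLCs by 0.37 (SE 0.33), or by -0.04 without Tfap2c-/- PGCLC sample 2. Dcx, which marks migrating young neurons, had 2.85 and 2.72 in Tfap2c-/- PGCLCs, 2.63 and 2.81 in control PGCLCs, 2.82 and 3.10 in Tfap2c-/- ESCs, and 2.86 and 2.69 in control ESCs on its brightest probe set. All values of its 4 probe sets lay between 1.72 and 3.10. A fall or a small change could not be detected at these levels, and no sample of any group rose above them.

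**Figure D3:**
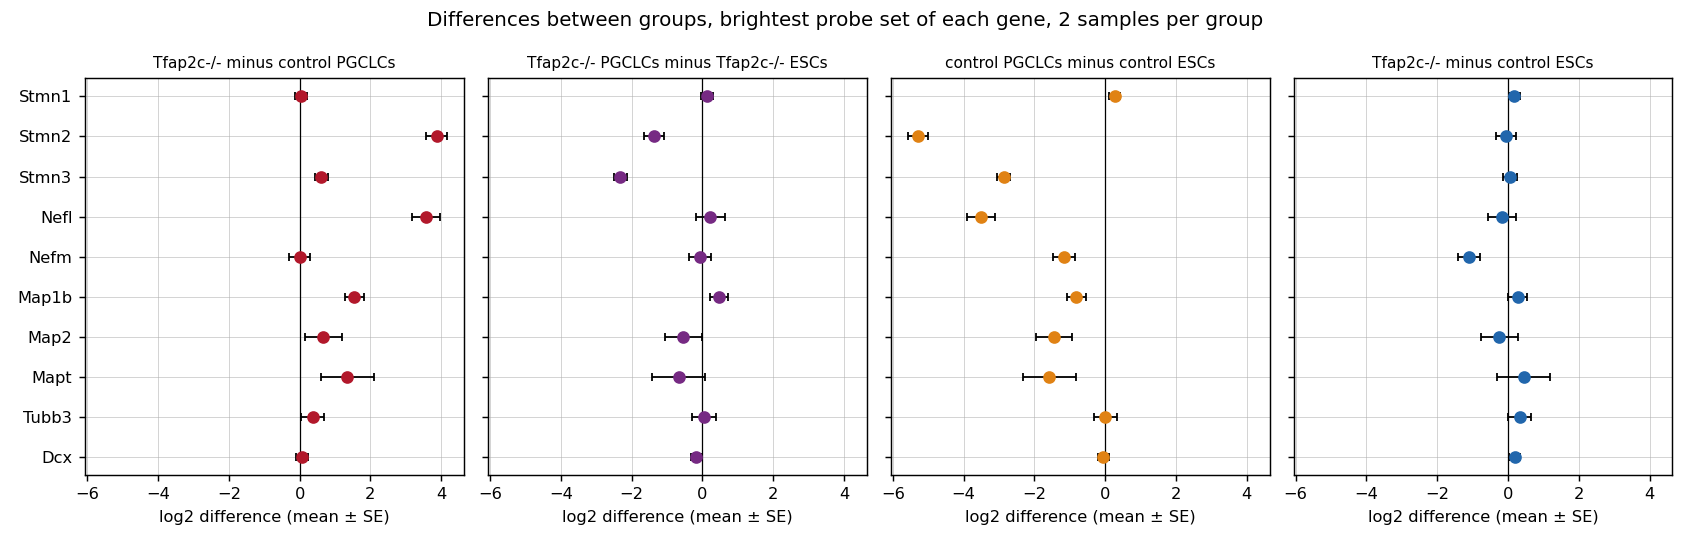
Difference of group means on the log2 scale (horizontal axis) for the brightest probe set of each of the 10 genes, with bars of 1 SE from the fit over all 4 groups (2 samples per group). From left to right the panels show Tfap2c-/- minus control PGCLCs, Tfap2c-/- PGCLCs minus Tfap2c-/- ESCs, control PGCLCs minus control ESCs and Tfap2c-/- minus control ESCs. Nefl is at 3.57, 0.22, -3.51 and -0.17 in these panels, and Stmn3 at 0.61, -2.32, -2.87 and 0.06.

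Set side by side, the 3 comparisons with PGCLCs gave different counts, and they share samples with each other. Between Tfap2c-/- and control PGCLCs, 4 of the 10 genes were higher by more than 1 on the log2 scale (Stmn2, Nefl, Map1b and Mapt), where 2.62% of all genes were, and 0 were lower by as much, where 2.23% of all genes were. In 6 of 10 (Stmn1, Stmn2, Stmn3, Nefl, Map1b and Map2) both knockout samples lay above both controls, as in 19.5% of all genes. Because the choice of the genes used these values, nothing is read from the counts. Between Tfap2c-/- PGCLCs and Tfap2c-/- ESCs, 0 of 10 were higher by more than 1 (3.47% of all genes) and 2 were lower, Stmn2 and Stmn3 (1.69% of all genes). Between control PGCLCs and control ESCs, 6 of 10 were lower by more than 1 (Stmn2, Stmn3, Nefl, Nefm, Map2 and Mapt), where 3.18% of all genes were, and 7 of 10, with Map1b in addition, lay wholly below the control ESC samples, as in 28.5% of all genes. The sets thus hold Stmn2 and Stmn3 below ESCs in both genotypes, and Nefl, Nefm, Map2 and Mapt below ESCs by more than 1 in control PGCLCs alone. For Nefm, PGCLCs of both genotypes had a mean of 3.20, and the ESC groups differed instead (3.26 in Tfap2c-/- ESCs, 4.36 in control ESCs). Membership of the second set moved with single samples and probe sets. In control PGCLCs, Nefm was lower than in control ESCs by less than 1 without control PGCLC sample 2 (-0.79) or control ESC sample 1 (-0.89), so that 5 of 10 genes were lower by more than 1, and without control PGCLC sample 1 Map1b (-1.17) made it 7. With the mean of all probe sets 4 were, as Map2 was at -0.49 and Mapt at -0.63, and Mapt was at -0.42 without probe sets liable to cross-hybridize. In Tfap2c-/- PGCLCs, Map2 lay below Tfap2c-/- ESCs by more than 1 without Tfap2c-/- ESC sample 2 (-1.41). Mapt did so without Tfap2c-/- PGCLC sample 2 (-1.85) or without Tfap2c-/- ESC sample 1 (4.66 against 6.01). Whether the 2 genotypes differ in this was not tested for these genes.

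The comparison of Tfap2c-/- ESCs with control ESCs was not the one the genes were selected on, and it was tested. Earlier results of these data were known when the genes were chosen, so this test is not fully independent of the choice. None of the 10 genes passed (limma, adjusted p = 1 for each), and 0% of all genes did in either direction, with 455 of 18193 at an unadjusted p under 0.05. The 10 genes include 1 of these, Nefm, which was lower in Tfap2c-/- ESCs by 1.10 (difference -1.10, SE 0.30, unadjusted p = 0.00701 by limma) with both knockout samples below both controls, as in 11% of all genes. It was also the only one lower by more than 1, where 0.308% of all genes were. None was higher by more than 1 (0.0824% of all genes). The differences of the other 9 genes lay between -0.25 (Map2, SE 0.52) and 0.44 (Mapt, SE 0.75). For Stmn2 the difference was -0.05 (SE 0.29) and for Nefl -0.17 (SE 0.40), beside 3.87 and 3.57 between Tfap2c-/- and control PGCLCs.

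Over the 8 samples, Stmn2 and Nefl had a Pearson r of 0.93, Stmn2 and Stmn3 of 0.86, and Nefl and Map1b of 0.84, whereas Nefl and Nefm had 0.41. These values describe 4 groups of 2 samples that share their cultures, and carry no test. Among the 1216 genes whose range over the 8 samples was at least 2 on the log2 scale, those most like Stmn2 were Laptm5 (r = 0.996, a lysosomal membrane protein), Pla2g1b (0.992, a secreted phospholipase), Grtp1 (0.992), Gpd2 (0.986, the mitochondrial glycerol-3-phosphate dehydrogenase) and Patl2 (0.986). Laptm5 had 8.15 and 8.44 in Tfap2c-/- PGCLCs, against 5.08 and 3.94 in control PGCLCs, with 9.13 to 9.42 in the ESC samples. Other probe sets of Laptm5, Pla2g1b and Gpd2 went down to r = 0.35, 0.21 and -0.06. Most like Nefl were Cbr3 (0.959, a carbonyl reductase), Slc6a15 (0.956, a transporter of neutral amino acids), Prune2 (0.950), Sema4a (0.949, a semaphorin) and Csrnp3 (0.946). Other probe sets of Prune2, Sema4a and Csrnp3 went down to r = 0.58, 0.81 and -0.43.

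Outside the 10 genes, 73 other genes of the cytoskeleton and neurites were listed, with earlier results of these data known. This limits what their tests and counts can show. Of the 73 genes, 70 were measured. Of these, 1 was higher and 2 were lower in Tfap2c-/- PGCLCs than in control PGCLCs (limma, adjusted p under 0.05), where 1.29% and 1.8% of all genes passed. Their median difference was 0.09, against -0.04 over all genes. The one that rose was Tubb2b, a beta tubulin abundant in the developing brain, with 9.28 and 9.86 in Tfap2c-/- PGCLCs, against 8.17 and 7.84 in control PGCLCs. It rose by 1.56 (SE 0.21, adjusted p = 0.0108, limma). Its levels in the ESC samples were 10.23 to 10.46, so that it held the same order of groups as Stmn2. The call was lost without control PGCLC sample 2 (difference 1.40, adjusted p = 0.0958), without Tfap2c-/- PGCLC sample 2 (1.27, adjusted p = 0.0564) and in a fit of the PGCLC samples alone (adjusted p = 0.0716). Tubb2a, its near-identical relative, is added after its values were seen, with 7.46 and 7.44 in Tfap2c-/- PGCLCs, against 6.38 and 4.93 in control PGCLCs, and 6.37 to 7.54 in ESCs (difference 1.80, adjusted p = 0.122, limma). The difference of Tubb2a was 1.07 without control PGCLC sample 2 and 0.35 without probe sets liable to cross-hybridize. Probes of one may bind transcripts of the other.

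The genes that fell in Tfap2c-/- PGCLCs were Kif3a, a kinesin motor subunit needed for cilia and axonal transport, and Map9, a microtubule-associated protein of the spindle. Kif3a had 5.88 and 5.48 in Tfap2c-/- PGCLCs, against 7.37 and 6.95 in control PGCLCs (difference -1.48, SE 0.22, adjusted p = 0.0164, limma). It lay between 5.63 and 6.02 in ESCs, and its other 3 probe sets were also lower in both knockout PGCLC samples. Without control PGCLC sample 1, control PGCLC sample 2 or Tfap2c-/- PGCLC sample 2 the call was lost (adjusted p = 0.0658, 0.0612 and 0.119), as in a fit of the PGCLC samples alone (adjusted p = 0.0749). Map9 had 6.14 and 6.37 in Tfap2c-/- PGCLCs, against 7.09 and 7.13 in control PGCLCs (difference -0.86, SE 0.17, adjusted p = 0.04, limma), and this call was lost whichever of the 8 samples was left out, in a fit of the PGCLC samples alone and with the mean of its probe sets (difference -0.50).

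By list, the other tubulins had 1 of 12 measured genes higher and 0 lower (median 0.21), other microtubule-associated proteins 0 of 18 higher and 1 lower (0.08), other neural intermediate filaments 0 of 6 either way (-0.08), growth cone and neurite proteins 0 of 13 (0.62), axonal transport motors 0 of 12 higher and 1 lower (0.07), and kinases of tau, stathmin and MAPs 0 of 9 (-0.07), all for Tfap2c-/- against control PGCLCs. The growth cone list had the highest median of the 6, but without control PGCLC sample 2 its median was 0.04, against 0.10 for the tubulins and 0.12 for the intermediate filaments. At an unadjusted p under 0.05, 4 growth cone genes were higher and 1 lower, as were 4 and 1 of the tubulins, 2 and 1 of the motors, 1 and 1 of the microtubule-associated proteins, 1 and 0 of the intermediate filaments and 0 of the kinases. Its largest differences were those of the collapsin response mediators Dpysl3 (1.74, adjusted p = 0.149) and Crmp1 (1.62, adjusted p = 0.122, both limma). Dpysl3 had 6.78 and 6.23 in Tfap2c-/- PGCLCs, against 5.54 and 3.98 in control PGCLCs, and Crmp1 had 5.38 and 4.90, against 4.09 and 2.96 in control PGCLCs. In both genes control PGCLC sample 2 was the lowest of the 8 samples, and without it the differences were 0.96 for Dpysl3 and 1.05 for Crmp1, below those of Ncam1 (1.22) and Dpysl4 (1.07), which are named after their values were seen. Without probe sets liable to cross-hybridize, Ncam1 was at -0.01 and Dpysl4 at -0.10. The largest differences of the intermediate filaments were those of Ina (0.74, adjusted p = 0.138) and Vim (0.52, adjusted p = 0.469, both limma), and Vim was at 0.26 without control PGCLC sample 2. Those of the kinases were Cdk5r1 (-0.36, adjusted p = 0.448) and Mark1 (-0.13, adjusted p = 0.817, both limma), and Mark1 was at 0.04 without that sample.

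Between Tfap2c-/- PGCLCs and Tfap2c-/- ESCs, 1 of the 70 genes was higher and 2 were lower, where 1.35% and 0.973% of all genes passed. Ina, which encodes the neuronal intermediate filament alpha-internexin, had 8.55 and 9.05 in Tfap2c-/- PGCLCs, against 6.72 and 7.02 in Tfap2c-/- ESCs (difference 1.93, SE 0.22, adjusted p = 0.0102, limma). It was also higher in control PGCLCs, with 7.88 and 8.23, than in control ESCs, with 6.33 and 6.17 (difference 1.81, adjusted p = 0.00457, limma), so that a neuronal filament gene was higher in PGCLCs of both genotypes while Nefl was lower in control PGCLCs. All 3 probe sets of Ina gave this order, but the call in Tfap2c-/- PGCLCs was lost in a fit of only the samples compared (adjusted p = 0.0604). Tuba4a, an alpha tubulin, was lower in Tfap2c-/- PGCLCs, with 10.45 and 10.56, than in Tfap2c-/- ESCs, with 11.63 and 11.69 (difference -1.16, adjusted p = 0.0356, limma). Dpysl5 was the other lower gene (-0.74, adjusted p = 0.0463, limma), with 2.29 and 2.57 against 3.18 and 3.16, all below the array medians. The call of Tuba4a was lost when either Tfap2c-/- ESC sample or any one PGCLC sample was left out, and that of Dpysl5 whichever of the 8 samples was left out. Both calls were also lost with the mean of probe sets and without a trend in the variance.

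Between control PGCLCs and control ESCs, 9 of the 70 genes were higher and 3 lower, where 4.64% and 3.72% of all genes passed. Besides Ina, those higher included Marcksl1, a membrane and actin protein (1.19, adjusted p = 0.00804), Kif3a (1.18, adjusted p = 0.02) and the kinase gene Mark2 (1.07, adjusted p = 0.0424). The others were Map7 (1.03, adjusted p = 0.0388), the dynein heavy chain gene Dync1h1 (0.85, adjusted p = 0.038), Map9 (0.68, adjusted p = 0.0489), Map4 (0.61, adjusted p = 0.0414) and the beta tubulin gene Tubb5 (0.44, adjusted p = 0.0458, all limma). Those lower were Tubb2b (-2.36, adjusted p = 0.00151), Tuba4a (-1.78, adjusted p = 0.00393) and the kinesin gene Kif5b (-0.82, adjusted p = 0.022, all limma). The calls of Tubb2b, Tuba4a and Ina held in all 14 alternatives tried. Kif3a lost its call without any one of the 4 control samples, Marcksl1 without control ESC sample 1 or control PGCLC sample 2, Kif5b without control ESC sample 1 or either control PGCLC sample, and Mark2 without any one sample save control ESC sample 1. The calls of Map7, Dync1h1, Map9, Map4 and Tubb5 were each lost without control ESC sample 1 or any one PGCLC sample, those of Dync1h1, Map9, Map4 and Tubb5 also without control ESC sample 2, and that of Map9 also without either Tfap2c-/- ESC sample. Without control ESC sample 2 Mark2 was at 0.69. When all probe sets of each gene were averaged, the differences of Mark2 (0.38), Map7 (0.50), Map9 (0.15) and Kif5b (-0.48) no longer passed. Nor did those of Map4 (0.63), Tubb5 (0.34) and Dync1h1, and that of Tuba4a was -1.18. With cross-hybridizing probe sets left out, Map4 was at 0.29 and Tubb5 at 0.25, and both lost their calls, as did Map9. In ESCs 0 of the 70 genes passed between genotypes (limma, 2 at an unadjusted p under 0.05), and in the test of whether the genotype difference itself differs between PGCLCs and ESCs 0 of 70 passed (limma, 3 higher and 5 lower at an unadjusted p under 0.05), where 0.033% of all genes were higher and 0.115% lower.

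**Figure D4:**
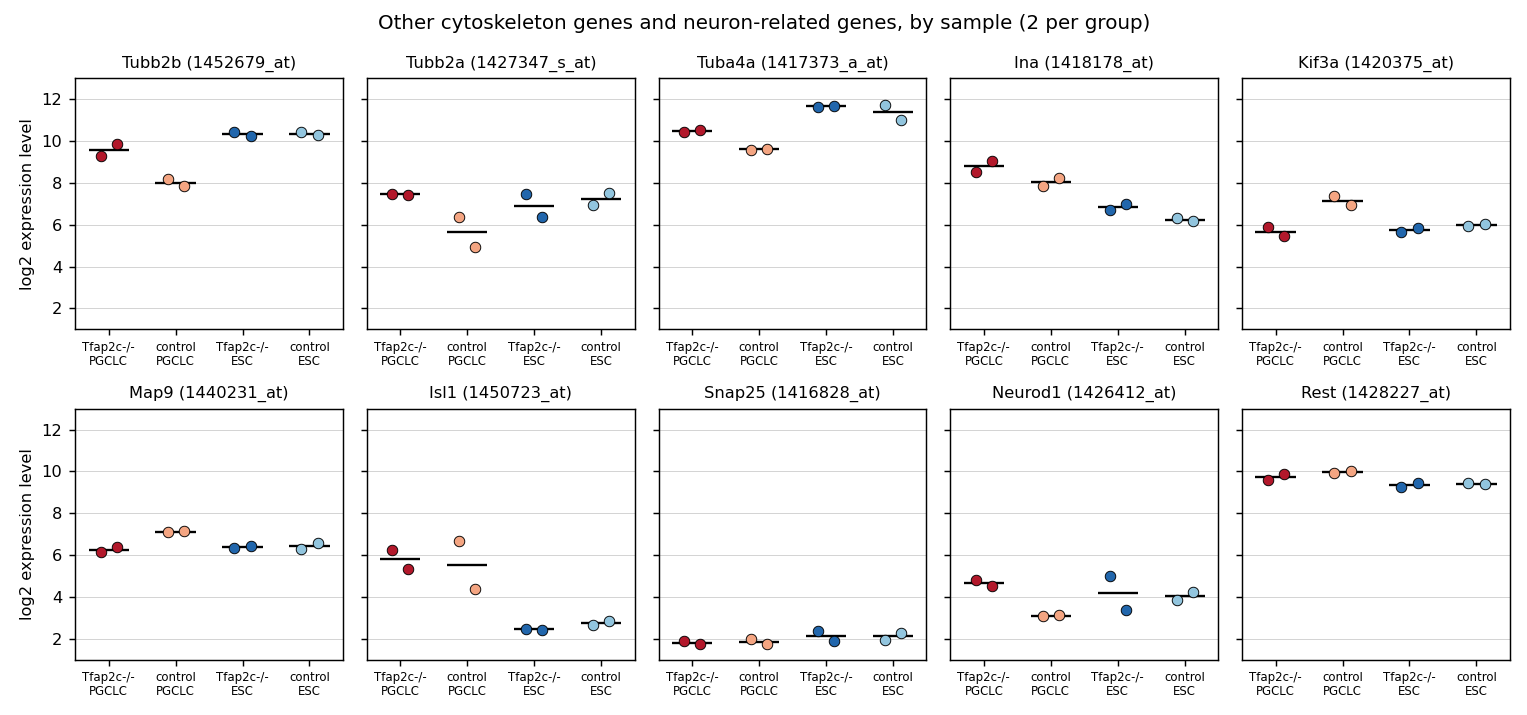
Level on the log2 scale (vertical axis) of 6 other cytoskeleton genes, 3 neuron markers (Isl1, Snap25 and Neurod1) and Rest in Tfap2c-/- PGCLCs, control PGCLCs, Tfap2c-/- ESCs and control ESCs, with points for samples and bars for means of the 2 samples of a group. Tubb2b is lowest in control PGCLCs, Kif3a is highest there, Ina is higher in PGCLCs of both genotypes than in ESCs, and Snap25 is below 2.4 in every sample.

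Markers of neurons were read beside the cytoskeleton genes, and the lists used from here on were also drawn up with earlier results of these data known. Of 12 measured neuron markers, 0 passed either way between Tfap2c-/- and control PGCLCs (limma, 1 at an unadjusted p under 0.05, median 0.06), and their summed level was 7.36 to 7.66 in Tfap2c-/- PGCLCs, against 7.04 to 7.73 in control PGCLCs, with 6.95 to 7.27 in Tfap2c-/- ESCs and 7.02 to 7.11 in control ESCs (log2 of the sum). The synaptic genes Snap25, Syt1, Syp and Syn1 lay between 1.73 and 3.28 on all 8 arrays. Neurod1, a neurogenic transcription factor, had the largest difference, with 4.83 and 4.52 in Tfap2c-/- PGCLCs, against 3.08 and 3.13 in control PGCLCs (1.57, adjusted p = 0.14, limma), and 3.35 to 5.02 in ESCs. Isl1, a factor of motor neurons that is also made in heart precursors, was the only marker with a mean of 5 or more in PGCLCs, with 6.25 and 5.33 in Tfap2c-/- PGCLCs, against 6.68 and 4.38 in control PGCLCs. It was higher than in ESCs of the same genotype by 3.34 in Tfap2c-/- PGCLCs (adjusted p = 0.0488) and by 2.78 in control PGCLCs (adjusted p = 0.0418, both limma). The call in Tfap2c-/- PGCLCs was lost without any one sample save those of control PGCLCs, and the call in control PGCLCs without any one sample save control PGCLC sample 2. Without control PGCLC sample 1 the difference in control PGCLCs was 1.63. Of 8 neural progenitor markers 0 passed between Tfap2c-/- and control PGCLCs (0 at an unadjusted p under 0.05, limma), where Msi1 (0.73, adjusted p = 0.381) and Fabp7 (0.58, adjusted p = 0.721) had the largest differences. Msi1 was at 0.25 without control PGCLC sample 2, and Fabp7 at -0.38 without Tfap2c-/- PGCLC sample 1. Against ESCs, Pax6, a factor of neural and eye precursors, was higher in Tfap2c-/- PGCLCs, with 4.49 and 5.56, than in Tfap2c-/- ESCs, with 3.09 and 3.22 (difference 1.87, adjusted p = 0.0431, limma). Msi1, an RNA-binding protein of neural stem cells, was lower in control PGCLCs, with 4.07 and 3.13, than in control ESCs, with 4.74 and 5.47 (difference -1.51, adjusted p = 0.0417, limma). Each gene had the same direction in the other genotype, without a call. Pax6 had 4.49 and 4.65 in control PGCLCs, against 2.86 and 3.47 in control ESCs. Msi1 had 4.18 and 4.48 in Tfap2c-/- PGCLCs, against 5.11 and 5.20 in Tfap2c-/- ESCs. The call of Pax6 was lost without any one sample save Tfap2c-/- PGCLC sample 1, and that of Msi1 without any one sample save control PGCLC sample 1. With the mean of their probe sets the differences were 0.38 and -0.61, and neither passed.

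The repressor REST, which keeps many neuronal genes silent outside neurons, and its partners were listed as 9 genes, and 0 of them passed between Tfap2c-/- and control PGCLCs (limma, 1 lower at an unadjusted p under 0.05, median 0.00). Rest had 9.59 and 9.89 in Tfap2c-/- PGCLCs, 9.90 and 10.02 in control PGCLCs, 9.27 and 9.43 in Tfap2c-/- ESCs, and 9.45 and 9.38 in control ESCs. Control PGCLCs exceeded control ESCs by 0.54 (adjusted p = 0.0476, limma), a call lost without either control ESC or either control PGCLC sample, without a trend in the variance (adjusted p = 0.0771) and with the mean of its probe sets (difference 0.12, adjusted p = 0.637). Between Tfap2c-/- and control PGCLCs the largest differences were those of the corepressor gene Rcor1 (0.36, adjusted p = 0.43) and of Sin3a (-0.35, adjusted p = 0.274, both limma), and without control PGCLC sample 2 they were 0.19 and -0.22. Ehmt2, a histone methyltransferase gene, was higher in Tfap2c-/- PGCLCs than in Tfap2c-/- ESCs by 1.05 (adjusted p = 0.0285, limma), a call lost whichever of the 8 samples was left out and with the mean of its probe sets (0.36).

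The identity of the cells was read from further lists. Of 7 measured primordial germ cell markers, 2 passed as lower in Tfap2c-/- PGCLCs than in control PGCLCs. They were Dppa3 (-4.28, adjusted p = 0.0413) and Kit (-1.91, adjusted p = 0.00513, both limma). At an unadjusted p under 0.05, 6 of the 7 were lower and 0 higher (limma). Their median difference was -1.25, against -0.04 over all genes. The 7 summed to 10.32 to 10.44 in Tfap2c-/- PGCLCs, 11.90 to 12.28 in control PGCLCs and 9.64 to 10.63 in ESCs. They include Tfap2c, the targeted gene, and Prdm1, whose regulatory sequence drives the reporter used to sort PGCLCs. These counts and sums are therefore not independent of the design. Of 6 embryonic stem cell markers, 1 was higher, Klf4, with 8.52 and 9.48 in Tfap2c-/- PGCLCs, against 6.91 and 6.65 in control PGCLCs (2.22, adjusted p = 0.00944, all limma), and 10.87 to 11.11 in ESCs. Klf4 therefore held the order of groups of Stmn2 and Tubb2b, and the call was lost without control PGCLC sample 2 and in a fit of the PGCLC samples alone (adjusted p = 0.0725). The call of Dppa3 was lost without any one PGCLC sample. Of the 6 mesoderm and 5 endoderm markers 0 passed (limma, with 1 and 0 at an unadjusted p under 0.05), and the largest differences were those of Tbx6 (-0.48) and Kdr (0.40) and of Gata6 (0.42, or -0.36 without control PGCLC sample 2) and Foxa2 (-0.13). Control PGCLCs exceeded control ESCs in the germ cell markers Dppa3 (4.05, adjusted p = 0.03), Dnd1 (2.12, adjusted p = 0.00479), Prdm1 (1.99, adjusted p = 0.0148) and Prdm14 (0.91, adjusted p = 0.0414) and in Tbx6 (0.49, adjusted p = 0.0414), and were lower in Klf4 (-4.22, adjusted p = 0.000658) and Nanog (-0.55, adjusted p = 0.0235, all limma). Of these, the calls of Dnd1 and Klf4 held in all 14 alternatives, and each of the others was lost without control ESC sample 1 or either control PGCLC sample. Those of Prdm1, Prdm14, Nanog and Tbx6 were also lost without control ESC sample 2, those of Dppa3 and Tbx6 without either Tfap2c-/- PGCLC sample, and that of Prdm14 without either Tfap2c-/- ESC sample. Tbx6 lay between 2.11 and 2.65 on all 8 arrays, below the array medians. PGCLCs were sorted for a reporter driven by Prdm1 regulatory sequence, so their higher Prdm1 than in ESCs is not independent of the sort. Tfap2c-/- PGCLCs exceeded Tfap2c-/- ESCs in Dnd1 (1.35, adjusted p = 0.0463) and were lower in Klf4 (-1.99, adjusted p = 0.0177, both limma), calls lost without any one of the 8 samples for Dnd1 and without either Tfap2c-/- ESC sample for Klf4, and for both in a fit of only the samples compared. How far a different make-up of the sorted cells enters the levels of Stmn2, Nefl and Map1b was not tested.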

How the data were processed

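RNA of 2 samples each of Tfap2c-/- PGCLCs, control PGCLCs, Tfap2c-/- ESCs and control ESCs was hybridised to Affymetrix mouse genome arrays. The authors deposited normalized expression values on the log2 scale, used as given; their methods name RMA and the submitters' notes name GCRMA, with no version, and probe intensities were not used here. Both methods force a common distribution on the arrays, so a general shift would not be seen. With 2 arrays per group, their number limits the precision.

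Of 45101 probe sets, 64 controls, 932 that name several genes and 9160 unnamed in the array annotation were left out. Each gene was represented by its brightest probe set, by mean over all arrays. The 4 group means were fitted together with limma 3.58.1 in R 4.3.3 (4 residual degrees of freedom, eBayes with a trend), p was two-sided and adjusted by Benjamini-Hochberg over 18193 genes, with a threshold of 0.05. SE are those of this fit. The steps were tested on simulated data. Python 3.11.15, pandas 2.3.3 and Matplotlib 3.10.9 were used for promoters and plots.

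The members and lists were chosen with earlier results of these data known. Text names all 10 genes and Tfap2c; from each of the 13 lists (6 of the cytoskeleton, 7 of markers and REST partners) up to 4 genes past limma with the largest difference in each comparison of PGCLCs, or, between Tfap2c-/- and control PGCLCs, the 2 largest where none passed; and the 5 genes most correlated with Stmn2 and with Nefl. Snap25, Syt1, Syp and Syn1 were added as defining markers, and Tubb2a, Ncam1, Dpysl4 and the level of Rest in PGCLCs after their values were seen. Tuba1b, Tuba1c, Klc2 and Nanos3 are not measured by probe sets used here. The alternatives were averaging the probe sets of a gene, leaving out probe sets liable to cross-hybridize, a filter on dim genes (highest group mean at least 5), no trend, only the arrays compared, the replicate number as a block, and leaving out each sample in turn.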

Additional observations from a re-analysis of the deposited data

How the results depend on the processing

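No difference of the 10 genes that exceeded 1 on the log2 scale changed its sign under any alternative in which it was computed, and in ESCs 0 of 10 passed under each. Their lowest adjusted p there was 0.504 (Map2 without Tfap2c-/- ESC sample 1, limma). Nefm was then 1 of 2 genes lower in Tfap2c-/- ESCs by more than 1, and 1 was higher; leaving out each sample gave 0 to 1 higher and 0 to 2 lower, and the filter on dim genes, which leaves Nefm out, gave 0 lower. With the mean of all probe sets Nefl differed between Tfap2c-/- and control PGCLCs by 2.51 and Map1b by 1.11.

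Counts of the other cytoskeleton genes past limma moved more. Between Tfap2c-/- and control PGCLCs, 3 were higher with the dim filter and 3 with the replicate block, against 1, and 0 to 3 with each sample left out; 1 was lower with the mean of probe sets and 0 with only the arrays compared, against 2, and 0 to 2 with each sample left out. Between Tfap2c-/- PGCLCs and Tfap2c-/- ESCs, 3 were higher with the dim filter, 0 with only the arrays compared and 4 with the replicate block, against 1, and 1 to 2 with each sample left out; 0 were lower with the mean of probe sets and without a trend, and 1 without probe sets liable to cross-hybridize, with the dim filter, with only the arrays compared and with the replicate block, against 2, and 0 to 1 with each sample left out. Between control PGCLCs and control ESCs, 4 were higher with the mean of probe sets, 5 without probe sets liable to cross-hybridize and 5 with only the arrays compared, against 9, and 1 to 7 with each sample left out (1 without control PGCLC sample 2); 5 were lower with the dim filter, against 3, and 2 to 5 with each sample left out. Fewer genes are tested under the dim filter and without cross-hybridizing probe sets; for the other settings the cause was not tested.

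The replicate numbers were not shown to pair the samples: deviations of same-numbered samples correlated between -0.33 (Tfap2c-/- and control ESCs) and 0.39 (Tfap2c-/- and control PGCLCs). As the first is below -0.1, the ESC samples were also paired crosswise, an alternative chosen after seeing the data, and 0 of the 10 genes and 0 of the other 70 passed with either pairing. Leaving out a sample leaves a group with 1, which is assumed to vary like the others. Levels near background limit Nefm, Map2 and Dcx. They also limit Dpysl5, Tbx6, Foxa2, Snap25, Syt1, Syp and Syn1, which lay below the array medians on every array. In control PGCLCs, Nefl (3.76 and 3.40) and Mapt (3.05 and 3.57) were near those medians too.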
